A study of Mus musculus with 3 samples.

Results

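Mitf, its family relatives Tfe3 and Tfeb, and 7 genes of the melanocyte lineage (Dct, Pmel, Tyr, Tyrp1, Sox10, Kit and Kitl) were followed in RNA sequencing data from mouse back skin. The 10 genes were picked by symbol from a table of 44625 gene entries, because Mitf had been seen at a high level beside low levels of its pigment targets. Their levels are therefore given as descriptions, without a test. Donor mice were wild type and 56 days old, an age at which hair follicles rest in the second telogen of the hair cycle. After trypsin digestion of the skin, live singlets positive for integrin alpha6 (Itga6) and negative for Sca1 (Ly6a) were sorted. The labels name no transgene and no treatment. Polyadenylated RNA was sequenced in 3 libraries, replicates 1 to 3, which form 1 group. The labels speak of biological duplicates although there are 3 libraries, so the spread between replicates may be partly technical.

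Mitf is a basic helix-loop-helix leucine zipper transcription factor and the central regulator of melanocytes, the pigment cells that seed the growing hair bulb from stem cells in the follicle. It shares its DNA-binding domain with Tfe3, Tfeb and Tfec, and these factors bind E-box sequences as homodimers or as heterodimers with each other. In melanocytes, Mitf acts with Sox10 and switches on the pigment enzymes Tyr, Tyrp1 and Dct and the melanosome matrix protein Pmel. Tfe3 and Tfeb are known for switching on genes of lysosomes and autophagy when nutrients are short. Kit is the receptor tyrosine kinase through which melanocytes, and also mast cells, receive Kitl (stem cell factor), a ligand that skin epithelial cells make.

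The promoters of the pigment enzymes are shown first, because they carry the letters that Mitf reads. RefSeq windows on GRCm38.p6, from 250 bases before to 50 bases after an annotated start, matched 8 of the 10 genes (all but Pmel and Sox10). Capitals mark CATGTG, or CACATG where it lies on the other strand, the core of the element called the M-box.
Tyr, chr7:87493463-87493762, minus strand: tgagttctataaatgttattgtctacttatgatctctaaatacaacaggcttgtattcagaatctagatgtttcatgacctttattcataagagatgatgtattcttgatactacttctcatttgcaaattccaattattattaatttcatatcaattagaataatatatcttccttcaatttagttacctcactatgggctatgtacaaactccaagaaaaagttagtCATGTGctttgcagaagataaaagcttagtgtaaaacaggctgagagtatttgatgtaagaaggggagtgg
Tyrp1, chr4:80833963-80834262, plus strand: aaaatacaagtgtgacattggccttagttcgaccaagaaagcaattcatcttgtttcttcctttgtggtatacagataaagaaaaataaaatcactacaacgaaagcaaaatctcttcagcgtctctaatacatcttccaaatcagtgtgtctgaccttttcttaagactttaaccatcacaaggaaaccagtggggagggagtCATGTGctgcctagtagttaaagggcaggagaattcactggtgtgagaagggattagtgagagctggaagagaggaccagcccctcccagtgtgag
Dct, chr14:118052197-118052496, minus strand: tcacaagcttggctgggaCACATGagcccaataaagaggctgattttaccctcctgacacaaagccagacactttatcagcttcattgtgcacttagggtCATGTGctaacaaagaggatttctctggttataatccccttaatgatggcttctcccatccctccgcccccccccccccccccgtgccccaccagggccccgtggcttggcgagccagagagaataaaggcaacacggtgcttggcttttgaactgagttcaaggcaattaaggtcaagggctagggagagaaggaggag
In Tyr the CATGTG began 21 bases before the start and in Tyrp1 46 bases before it, and in both it was preceded by AGT to give AGTCATGTG. Dct held CATGTG 150 bases before the start and its reverse complement 232 bases before it. Of all 32851 windows, 14.2% held CATGTG on either strand, 3.77% held TCATGTG (which contains it), and 0.274% held AGTCATGTG. Among the 10 pigment genes listed for this report, 6 had a window and 6 of these held CATGTG. The other members with a window (Mitf, Tfe3, Tfeb, Kit and Kitl) did not hold it. A match describes letters and not binding.

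Mitf itself (chromosome 6, 97807052 to 98021349, plus strand, GENCODE M21 on GRCm38) is transcribed from several starts, and the most downstream of them, nearest the shared exons, is the start used in melanocytes. The table has 3 Mitf windows, whose first and last starts lie 184725 bases apart. The last window, at the most downstream start, is shown with CTTTGA (a Lef1 and Tcf core) and TGACGTCA (the cyclic AMP response element bound by Creb) in capitals.
Mitf, chr6:97991533-97991832, plus strand: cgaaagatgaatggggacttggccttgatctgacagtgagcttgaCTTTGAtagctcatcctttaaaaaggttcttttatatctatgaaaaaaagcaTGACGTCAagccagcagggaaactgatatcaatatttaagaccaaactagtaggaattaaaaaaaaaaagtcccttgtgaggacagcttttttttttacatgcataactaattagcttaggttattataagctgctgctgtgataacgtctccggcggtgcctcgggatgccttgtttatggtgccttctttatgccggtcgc
CTTTGA began 205 bases and TGACGTCA 153 bases before the start. Searched on both strands, CTTTGA was present in 16.0% of all windows and TGACGTCA, which reads the same on both, in 1.79%. Neither of the other 2 Mitf windows held TGACGTCA, and the second of the 3 held CTTTGA as well, from base 9 with the start counted as 1. The deposited values are 1 number per gene, so the share of Mitf RNA from each start is unknown.

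The libraries held 29283936 to 39198620 counts, and 13664 genes had a mean of at least 1 TPM (counts per base of gene length, scaled so that every library has the same sum), the level taken here as detected. Replicate 1 stood apart, since 59.6% of the detected genes were highest in it, against 20.02% in replicate 2 and 20.4% in replicate 3. For the 3 pairs of libraries, chi-square over its degrees of freedom ran from 33.6 to 180, above the value near 1 of counting noise, so no library was a duplicate deposit of another. Replicates 2 and 3 were the closest pair. The statistic does not show that the libraries come from separate mice or collections. The 8 hair follicle stem cell markers were all detected, with Krt15 at 23208 ± 3176 TPM and Cd34 at 535 ± 56.8 TPM (SD, n = 3). Itga6 had 102 to 120 TPM and Ly6a 3.16 to 11.6 TPM.

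Mitf was the highest of the 10 genes in every library. It had 44.4, 28.5 and 24.0 TPM in replicates 1, 2 and 3, from 2967, 2422 and 2295 counts. The mean was 32.3 ± 10.7 TPM (SD, n = 3), and 26.3 TPM without replicate 1. Replicate 1 was 1.85-fold above replicate 3, and the 95% exact Poisson intervals of the 3 libraries (42.8 to 46.1, 27.4 to 29.7 and 23.0 to 25.0 TPM) did not overlap, so the libraries differed by more than counting error. Intervals cover counting error only. Scaling the libraries to a common upper quartile, which shifted them by -0.21, 0.10 and 0.11 on the log2 scale, left replicate 1 highest with 38.3, 30.6 and 26.0 TPM. By its mean, Mitf lay above 71.6% of the detected genes.

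Tfe3 (chromosome X, 7762560 to 7775202, plus strand) was the steadiest of the family, with 11.7, 12.0 and 12.9 TPM in replicates 1 to 3. Its mean was 12.2 ± 0.642 TPM (SD, n = 3). Tfeb (chromosome 17, 47737030 to 47792419, plus strand) had 9.51, 12.9 and 9.15 TPM, a mean of 10.5 ± 2.07 TPM. The lowest Mitf value lay above the highest value of either paralog, whereas the Tfe3 and Tfeb values overlapped and Tfeb was the higher in replicate 2. On the log2(TPM + 1) scale, Mitf lay above Tfe3 by 1.84, 1.18 and 0.85 in replicates 1 to 3 (mean 1.29 ± 0.51) and above Tfeb by 2.11, 1.09 and 1.30 (mean 1.50 ± 0.54). Tfec, the fourth member of the family, had no read in any library, and a count of 0 allows up to 0.0498 TPM.

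**Figure D1:**
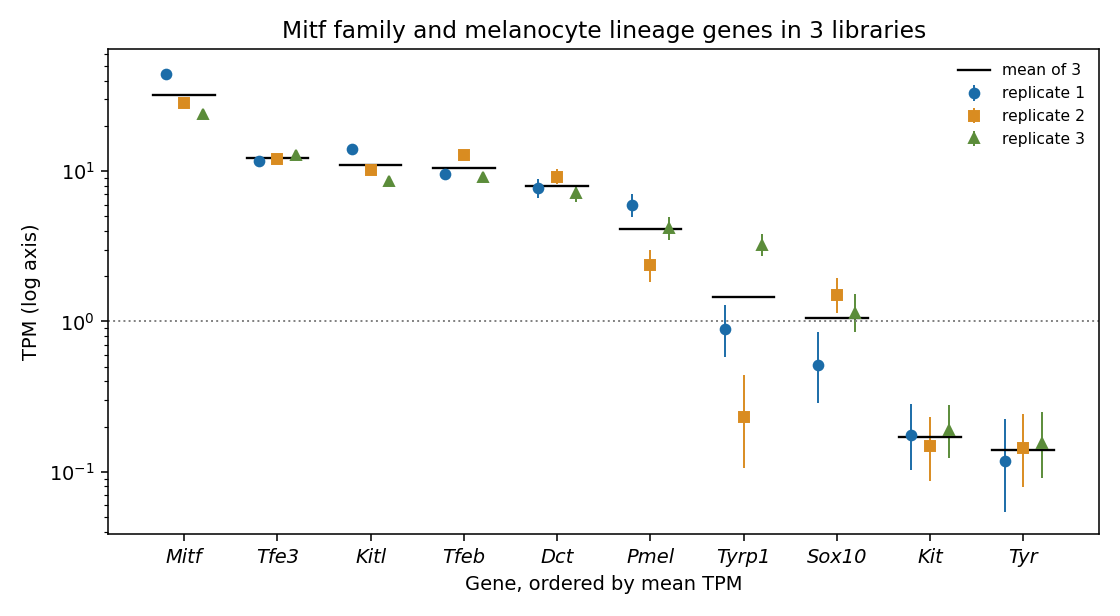
TPM of the 10 genes (log axis) in replicates 1 to 3, with 95% exact Poisson intervals and the mean of the 3 as a black line. The dotted line marks 1 TPM. Mitf sits highest at 24.0 to 44.4 TPM, while Kit and Tyr stay below 0.2 TPM in all 3 libraries.

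Of the summed TPM of the 4 family genes, Mitf made up 67.7%, 53.4% and 52.1% in replicates 1, 2 and 3. Tfe3 made up 17.8%, 22.5% and 28.0%, and Tfeb 14.5%, 24.1% and 19.9%. Mitf thus gave more than the other 3 genes together in each library, least so in replicate 3. Set among 18 other factors with the same domain architecture, Mitf took rank 9 of 22 by mean TPM, Tfe3 rank 16, Tfeb rank 17 and Tfec rank 22. In single libraries Mitf took rank 6, 10 and 10. The highest of the 22 were Myc, a driver of growth and proliferation (135 ± 26.4 TPM), Srebf2, which controls cholesterol synthesis (105 ± 22.6 TPM), Max, the partner of Myc (96.7 ± 12.8 TPM), and Mxd4, which competes for Max (73.8 ± 4.62 TPM). All 18 of the other factors were detected.

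The genes most like Mitf by Euclidean distance of log2(TPM + 1) over the 3 libraries, out of 21425 protein-coding genes, were Edc4, Wtap, Arfrp1, Abcc5 and Rabep1. The closest, Edc4, which takes part in mRNA decapping, had 46.4, 28.2 and 24.4 TPM at a distance of 0.0650. With only 3 libraries, such likeness rests largely on a similar level and on the higher value in replicate 1.

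Among the pigment genes, Dct (chromosome 14, 118012790 to 118052244, minus strand), which encodes dopachrome tautomerase, was highest. Its 188, 285 and 249 counts in replicates 1 to 3 gave 7.71, 9.21 and 7.14 TPM, on average 8.02 ± 1.07 TPM (SD, n = 3). Mitf exceeded it by 5.76, 3.10 and 3.36-fold. Dct was 48.6% to 77.0% of the summed TPM of Dct, Pmel, Tyr and Tyrp1, the largest part in each library.

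Pmel (chromosome 10, 128704195 to 128720238, plus strand) had 5.92, 2.37 and 4.17 TPM, from 136, 69 and 137 counts. Replicate 2 was the low library here, 2.50-fold below replicate 1. Pmel overlaps 2 strongly expressed genes on the opposite strand in GENCODE M21: it shares 105 exon bases with Dgka (207, 99.4 and 90.6 TPM) and 34 with Cdk2 (64.3, 33.1 and 34.2 TPM). These are 4.58% and 1.48% of its 2292 exon bases, which does not give the share of its reads. The strand setting of the counting was not given in the sources used here, so reads of Pmel and of these neighbours cannot be told apart there, and their part in the Pmel value was not tested.

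Tyr (chromosome 7, 87424771 to 87493512, minus strand), the rate-limiting enzyme of melanin synthesis, rested on 9, 14 and 17 counts. That gave 0.117, 0.144 and 0.155 TPM, with Poisson intervals that overlapped throughout. Tyrp1 (chromosome 4, 80834123 to 80851719, plus strand), which stabilises tyrosinase and oxidises a later intermediate, was uneven. It had 27, 9 and 141 counts, or 0.886, 0.232 and 3.23 TPM, with the interval of replicate 3 (2.72 to 3.81 TPM) clear of the others. Without replicate 3 its mean was 0.559 instead of 1.45 TPM, so that library alone put Tyrp1 above 1 TPM.

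Other pigment genes were low, and some differed between libraries. Slc24a5, a melanosomal cation exchanger, had 0.677, 0.188 and 1.56 TPM, with the order of libraries seen for Tyrp1. Mlana, named after its values were seen, went the other way with 6, 10 and 0 counts. Oca2 and Gpr143 had 0 counts in every library, which allows up to 0.0703 and 0.140 TPM. Of the 10 pigment genes, 3 (Dct, Pmel and Tyrp1) were detected, and the list median was 0.227 ± 0.149 TPM (SD, n = 3). Over all genes of the table, 30.6% were detected and the median was 0 TPM in each library. The summed TPM of the list was 16.3, 13.5 and 16.3 in replicates 1 to 3, and Mitf alone was 2.72, 2.11 and 1.47 times that sum. Against the median of Dct, Pmel, Tyr and Tyrp1, Mitf lay higher by 3.65, 3.86 and 2.42 on the log2(TPM + 1) scale, a mean of 3.31 ± 0.78. Against the highest of the 4 the mean was 1.85. In bulk RNA, fewer cells of a type and less RNA per cell cannot be told apart.

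**Figure D2:**
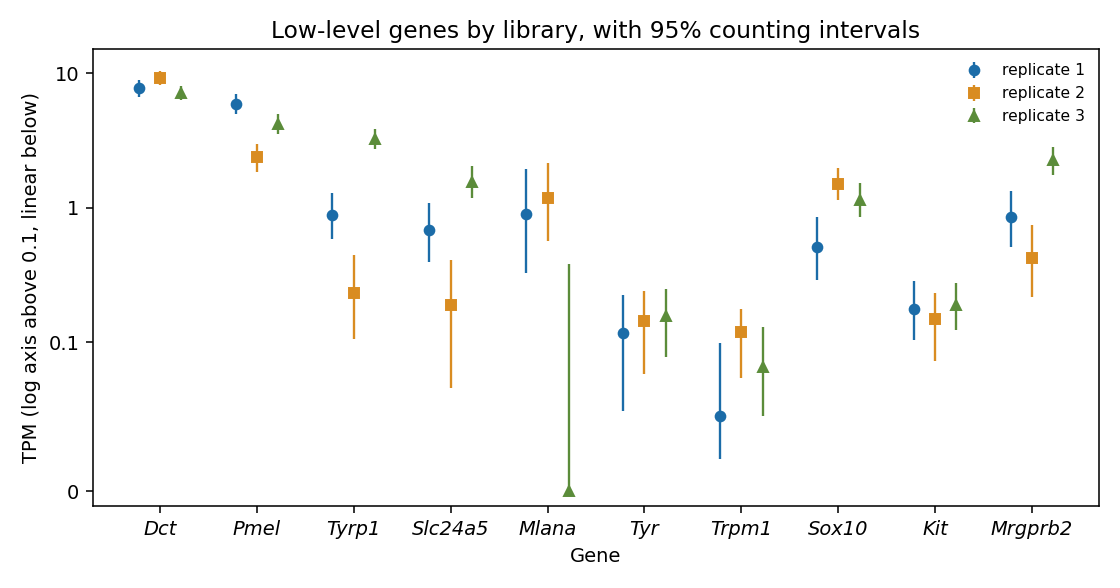
TPM of low pigment and lineage genes and of the mast cell receptor gene Mrgprb2 in each library, with 95% exact Poisson intervals (log axis above 0.1 TPM, linear below). Tyrp1, Slc24a5 and Mrgprb2 are highest in replicate 3, Mlana has 0 counts there, and Tyr and Kit overlap across libraries.

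Genes of melanosome trafficking are shared with lysosome-related organelles of other cells, and their list median was higher than that of the pigment genes. Of 16 trafficking genes, 15 were detected, with a list median of 11.4 ± 0.397 TPM (SD, n = 3). Rab38, a small GTPase that delivers Tyr and Tyrp1 to melanosomes, was highest with 62.5, 53.3 and 51.3 TPM. Next came Ap3b1, an adaptor subunit, with 35.5 ± 1.08 TPM, and the BLOC-1 subunits Dtnbp1 and Bloc1s6 with 27.4 ± 1.67 and 20.6 ± 1.64 TPM. Lower in this list, and named after their values were seen, were Myo5a, Rab27a and Mlph, with means of 7.88, 1.53 and 0.397 TPM. Mlph fell below the limit of detection.

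Sox10 (chromosome 15, 79154908 to 79165240, minus strand), the neural crest factor that activates Mitf and Dct in melanocytes, was near 1 TPM. Its 15, 56 and 48 counts gave 0.513, 1.51 and 1.15 TPM, on average 1.06 ± 0.504 TPM (SD, n = 3). Replicate 1, where Mitf was highest, was the lowest for Sox10, and its interval (0.287 to 0.846 TPM) lay below that of replicate 2 (1.14 to 1.96 TPM). Of 10 neural crest and melanoblast regulators, 5 were detected. The 3 at high levels were Tfap2b (137 ± 7.17 TPM), Tfap2a (74.0 ± 10.5 TPM) and Snai2 (73.0 ± 32.4 TPM), which skin epithelium also makes. Lef1 followed with 1.67 ± 0.636 TPM, and the melanoblast factor Pax3, named after its values were seen, had 0.180, 0.390 and 0.252 TPM. Sox10 also marks Schwann cells. Of 8 Schwann cell markers, 4 were detected, and their summed TPM was 16.6, 8.84 and 11.4 in replicates 1 to 3. The myelin gene Mbp had 5.57 ± 0.154 TPM, and Cdh19 had 0 counts throughout. Their part in the Sox10 value was not tested.

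Kit (chromosome 5, 75574916 to 75656722, plus strand) was present at 17, 18 and 26 counts. That equalled 0.177, 0.148 and 0.189 TPM, a mean of 0.171 ± 0.0214 TPM (SD, n = 3), with overlapping intervals. Its ligand Kitl (chromosome 10, 100015630 to 100100416, plus strand) had 14.0, 10.2 and 8.59 TPM from 872, 804 and 764 counts, a mean of 10.9 ± 2.80 TPM and 9.39 TPM without replicate 1. Kitl was thus 79.3, 69.0 and 45.4 times Kit in TPM. The same order of libraries held for Kitl and for Mitf. Of 10 mast cell markers, 7 had 0 counts in every library, among them the proteases Cpa3, Mcpt4, Tpsb2 and Cma1, the IgE receptor genes Fcer1a and Ms4a2, and Mrgprb1. Cpa3 could have had up to 0.183 TPM. The mast cell list summed to 1.38 to 3.12 TPM, nearly all from Mrgprb2 (1.17 ± 0.955 TPM) and Hdc (1.09 ± 0.308 TPM). Mrgprb2 had 0.849, 0.422 and 2.25 TPM in replicates 1 to 3, and its mean without replicate 3 was 0.635 TPM.

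Other receptors and ligands of the melanocyte niche were mixed. Erbb3, a neuregulin receptor, and Met, the receptor of Hgf, had 35.1 ± 4.03 and 31.7 ± 5.11 TPM, and Ngfr had 8.67 ± 2.08 TPM, whereas the endothelin receptor Ednrb, named after its values were seen, had 7, 0 and 16 counts. Mc1r and Asip were not analysed here. Of the 9 ligand genes in the table, 4 were detected: Edn2 (12.1 ± 1.46 TPM) and Kitl at similar levels, Edn1 at 3.22 ± 1.47 TPM, and Fgf2 at 2.35, 0.517 and 0.210 TPM. Dkk1, a secreted Wnt antagonist, had 0 counts in every library. Components that carry the signal inside the cell were detected for 15 of 16 Kit signalling genes. Among the highest were the kinase Mapk3 (280.1 ± 32.0 TPM), the regulatory kinase subunit Pik3r1 (104 ± 40.7 TPM) and Src (66.6 ± 8.45 TPM), which serve many receptors.

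Markers of Merkel cells, the touch-sensing cells of skin epithelium, were low: 1 of 6 was detected, Krt8 with 3.90 ± 0.365 TPM. Krt20, Atoh1 and Isl1 had 0 counts in all 3 libraries.

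**Figure D3:**
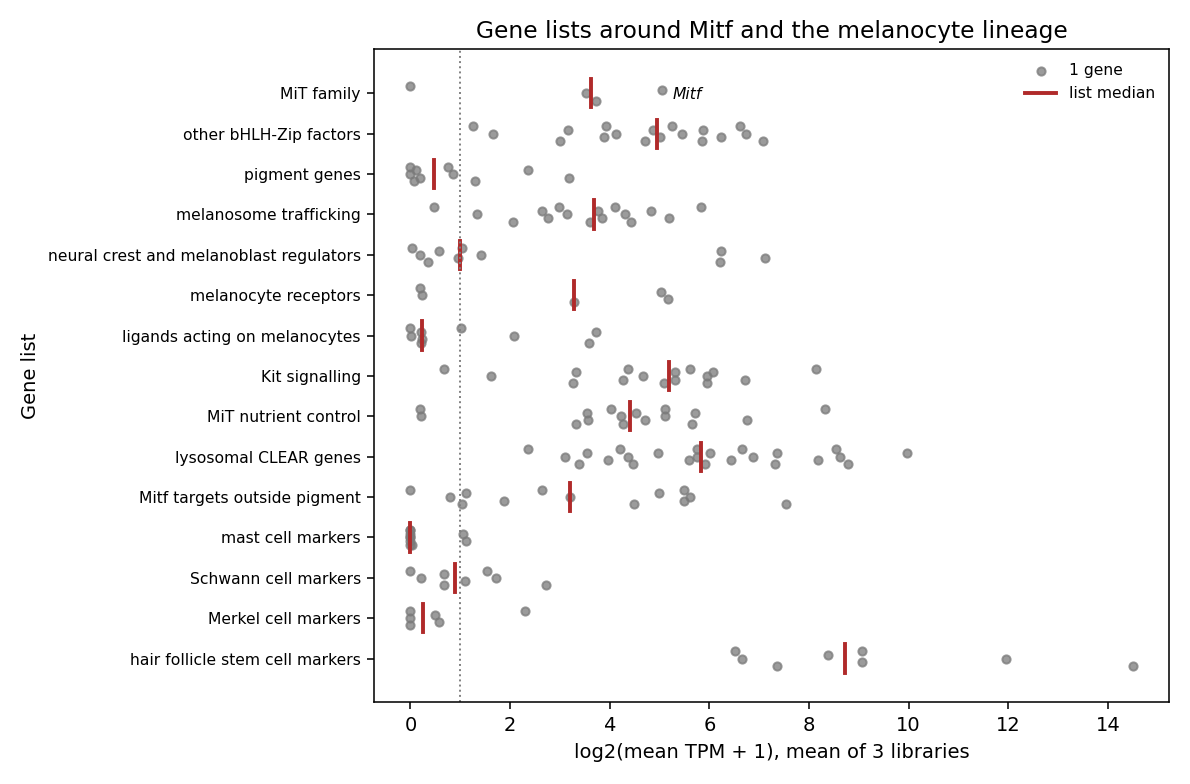
Mean level of each gene, log2(mean TPM + 1) over the 3 libraries, in the 15 gene lists; the red line is the list median and the dotted line marks 1 TPM. Lysosomal genes sit well to the right of the pigment genes, whose median is below 1 TPM.

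Targets that the family is known for outside pigment were at higher levels. All 24 of the lysosomal CLEAR genes in the table (genes named for an E-box element bound by Tfeb, Tfe3 and Mitf) were detected, with list medians of 53.7, 59.5 and 61.7 TPM in replicates 1 to 3. Psap, the precursor of the saposins, had 1002 ± 197 TPM, the protease Ctsb 437 ± 77.5 TPM, the autophagy gene Gabarap 395 ± 42.4 TPM and the lysosomal membrane gene Lamp1 371 ± 54.5 TPM (SD, n = 3). Of these 24, 12 were highest in replicate 3 and 6 in replicate 1. Of the 19 CLEAR genes with a promoter window, 9 (47.4%) held CACGTG, against 8.09% of all genes with a window. CATGTG was held by 5 of the 19 (26.3%), against 15.9% of all genes. The list is defined by an E-box element, so a high share of CACGTG was built in and tests nothing. CACGTG was also held by 7 of 14 melanosome trafficking genes (50%) and 5 of 15 other factors with the domain architecture of Mitf (33.3%). Among 13 Mitf targets outside pigment and the CLEAR list, 11 were detected, led by the cell cycle inhibitor Cdkn1a (185 ± 10.3 TPM), Hif1a (47.6 ± 2.17 TPM), the acid phosphatase Acp5 (44.2 ± 7.95 TPM) and Cdk2 (43.8 ± 17.7 TPM). Cdkn2a had 0 counts in all 3 libraries.

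Genes that set the location or activity of the family, through nutrient sensing at the lysosome, calcineurin or direct binding, were detected in 14 of 16 cases. Hint1, a protein that binds Mitf, had 318 ± 8.23 TPM, the Rag GTPases Rraga and Rragc had 107 ± 10.7 and 51.7 ± 1.41 TPM, and the calcineurin subunit Ppp3r1 had 49.5 ± 5.52 TPM (SD, n = 3). Their list median was 29.0 TPM in replicate 1 against 18.1 and 18.8 TPM in the others.

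The authors' deposited table also gives a log2 fold change and an adjusted p-value per gene, taken from column names to compare these libraries with bulge libraries, which are not used here. Of 2555 genes with 0 counts in all 3 libraries and a fold change, 2555 had a negative value, so a positive one stands for a higher level in the sorted cells described here. The choice of members used this contrast, so nothing is read from their counts. Their single fold changes and adjusted p-values below are likewise given as descriptions only. At an adjusted p under 0.05 in the authors' deposited table, 3 of the 10 genes were higher, where 23.6% of the 20274 genes with an adjusted p were, and 1 was lower, where 32.0% were.

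Mitf was the lower one, although it was the highest of the 10 within these libraries: its log2 fold change in the authors' deposited table was -1.21 (adjusted p = 1.9e-08). Both paralogs went the opposite way there, Tfeb with 1.35 (adjusted p = 0.000405) and Tfe3 with 0.64 (adjusted p = 0.0272). Dct was the third higher gene in the authors' deposited table, with 1.39 (adjusted p = 0.0193). The other pigment genes among the 10 members had positive values that did not pass the threshold in the authors' deposited table: 1.22 for Tyr, 1.14 for Tyrp1 and 0.39 for Pmel (adjusted p = 0.431, 0.32 and 0.554). Sox10 had the largest value of the 10, 2.33, also short of the threshold in the authors' deposited table (adjusted p = 0.0683). Kit had 0.19 and Kitl -0.43 (adjusted p = 0.879 and 0.108 in the authors' deposited table).

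Gene length moved with this fold change over all genes. The median log2 fold change in the authors' deposited table was 0.32 for genes of 1206 to 2472 bases, 0.19 for those of 2473 to 3814 bases, -0.08 for those of 3815 to 5983 bases and -0.80 for longer ones. For genes of up to 1205 bases it was -1.80. These 5 classes hold equal shares of the genes. Mitf is 6196 bases long in the table, and among 3116 genes within 20% of that length the median was -0.32, with 33.9% called lower. Its value lay 0.89 below that median, and 23.0% of those genes lay lower still. Tfe3, at 9261 bases, lay 1.44 above the median of 1725 genes of similar length, of which 10.2% were called higher. Tfeb lay 1.58 above its median (21.7% called higher of 3348 genes) and Dct 1.09 above its own (34.2% of 2959). These comparisons by length were added after the data were seen, and the part of gene length in the 4 fold changes was not tested.

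**Figure D4:**
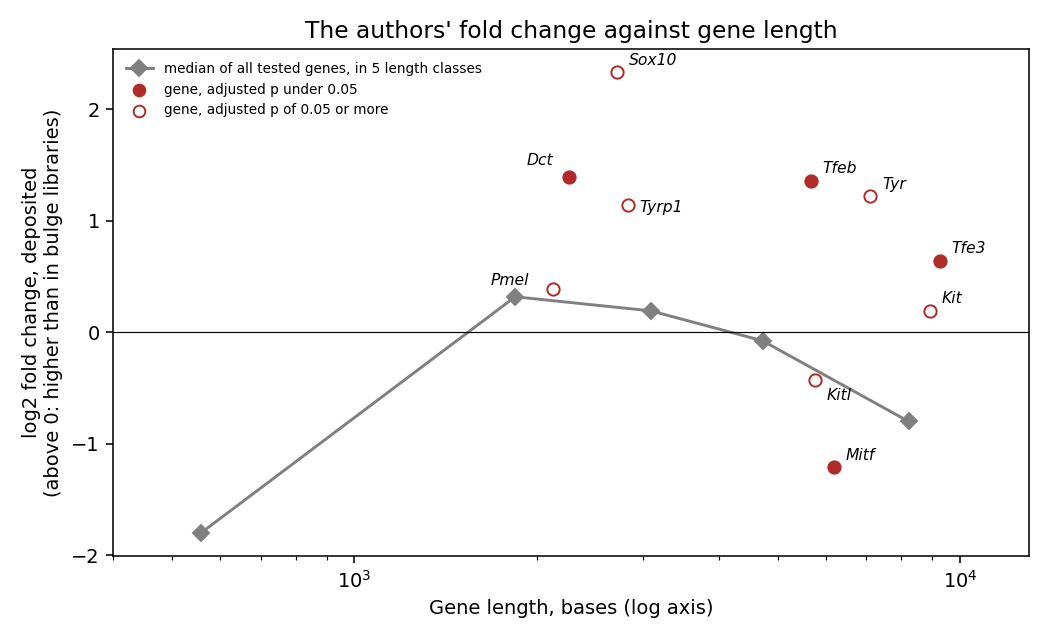
The authors' log2 fold change against gene length (log axis) for the 10 genes, filled where the deposited adjusted p is under 0.05, and the median of all tested genes in each of 5 length classes (grey). Mitf, at -1.21, lies below the grey line, and Tfe3 and Tfeb lie above it.

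In the authors' deposited table, 14 of the 24 lysosomal CLEAR genes were higher, 3 were lower and 7 did not pass the threshold, with a median log2 fold change of 1.10 against -0.36 over all 20274 genes. The lists were not matched for gene length or level, and the medians of the length classes above ran from -1.80 to 0.32. The part of length in the gap was not tested. Each count in this paragraph is to be read against the 23.6% of all tested genes that were higher and the 32.0% that were lower. Of the 16 melanosome trafficking genes, 8 were higher, 5 lower and 3 did not pass. The neural crest and melanoblast list had 0 higher and 5 lower of 9 with an adjusted p, among them Tfap2b (-1.57), Snai2 (-1.21) and Tfap2a (-0.76). For the Mitf targets outside pigment, 4 were higher and 6 lower of 12. For Kit signalling the numbers were 5 and 6 of 16, and for the nutrient control genes 5 and 8 of 16. Kit signalling was thus near the shares over all genes. Of the 18 other factors with the domain architecture of Mitf, 10 were higher and 3 lower. Of the 7 pigment genes with an adjusted p in the authors' deposited table, Dct was the 1 that passed. The hair follicle stem cell list had 4 higher and 3 lower of 8.

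H3K27me3 is a histone mark laid down by Polycomb complexes on repressed genes, and the authors deposited a whole number per gene for it, whose unit and source cells were not stated. A value above 0 was held by 8.06% of all entries and by 2 of the 10 genes, Sox10 with 9401 and Kit with 9081. Mitf, Tfe3, Tfeb, Kitl and all 10 pigment genes had a value of 0, including those with 0 counts. The value of Sox10 was shared with the neighbouring transcript Gm10863. The values of Sox10 and Kit lay near the middle of the values above 0, higher than 57.5% and 56.4% of them. Among the 10 neural crest and melanoblast regulators, 6 had a value above 0. Those 6 were Pax3 (101396, higher than 98.7% of such values), Foxd3 (34468), Zeb2 (25007), Lef1 (13866), Sox10 and Ets1 (3001), each with a mean under 2 TPM; Pax3, Foxd3, Zeb2, Ets1 and Sox5 are named for these values. The other 4 had 0: Tfap2a, Tfap2b and Snai2, which were at high levels, and Sox5, which was at only 0.487 TPM. The authors' deposited table combines this value with the fold change and its adjusted p-value in a score, and Sox10 was placed at rank 117 of 20274 with a score of 25517, the highest of the 10 genes. Kit followed at rank 670, and Mitf, with a value of 0 and a negative fold change, was at rank 16157.

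**Figure D5:**
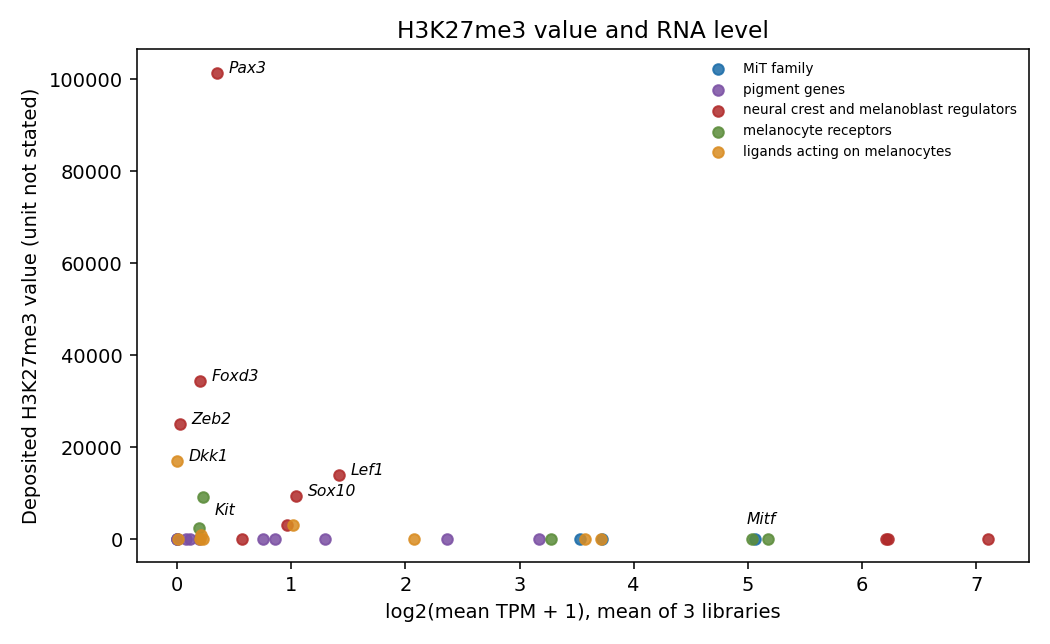
Deposited H3K27me3 value (unit not stated) against log2(mean TPM + 1) for 5 gene lists, with Mitf and the genes with the largest values named. The points with large values, Pax3 highest at 101396, lie at the left, while Mitf and the pigment genes lie at 0.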

How the data were processed

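The values came from 1 table. Per the file headers, the authors gave each library raw read counts and TPM values. Counts divided by the table's gene lengths and rescaled matched the TPM to within 4.72e-06. Per the submitters' processing notes, the builds were mm10 and GRCm38, and FastQC, SAMtools, TopHat2, DESeq and DESeq2 were named without a role. The counting tool and strand setting are not given in the sources used here. The authors also deposited a log2 fold change with an adjusted p-value, an H3K27me3 value treated as a score, and a combined score, which equalled (H3K27me3 value + 1) times the log2 fold change times -log10 of the adjusted p-value in all 20274 genes within 0.1%. Another 6 columns of per-sample values, headed Bulge, match no sample and were not used.

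With 1 group no model was fitted and no test was run. Log2 values use TPM plus a pseudocount of 1, which understates differences of low genes. A count of 0 allows up to 3 counts, converted to TPM in the shallowest library for that gene. Means carry the SD over 3 libraries. The members and the 15 lists (176 genes, 3 of them not in the table: Mc1r, Asip and Map1lc3b) were chosen with earlier results of these data known. Named from each list are the 4 genes with the highest mean TPM and every gene with 0 counts throughout, plus the 5 genes most like Mitf; 2 genes that this rule would name are not reported here. Coordinates and gene types are from GENCODE M21 by identifier (44392 of 44625 matched), and promoters from RefSeq. Python 3.11.15, pandas 2.3.3, numpy 2.4.6, scipy 1.17.1 and matplotlib 3.10.9 were used. Alternatives covered the pseudocount, CPM in place of TPM, limits of detection, thresholds of the authors' comparison, motifs, upper-quartile scaling and leaving out each replicate.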

Additional observations from a re-analysis of the deposited data

How the results depend on the processing

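No paired analysis was possible because the 3 libraries form 1 group. Upper-quartile scaling moved the mean of each of the 10 genes by less than its SD. Leaving out 1 of 3 replicates cannot move a mean by more than the SD, so it says nothing of stability there. Tyrp1 ranged from 0.559 to 2.06 TPM that way. With CPM in place of TPM, the log2 difference of Mitf from the median of the 4 pigment genes was 4.59, that from Tfe3 was 0.77, and that of Kitl from Kit was 3.96. Against the highest of the 4 pigment genes, Mitf lay 1.85 higher. With a pseudocount of 0.1, Kitl lay 5.32 above Kit. Without 1 replicate, these differences ranged from 3.04 to 3.76 for Mitf and the pigment genes, 1.02 to 1.51 for Tfe3, 1.19 to 1.71 for Tfeb and 3.15 to 3.48 for Kitl and Kit. At a limit of 0.5 TPM 5 pigment genes were detected, and at 5 TPM 1 was. Without 1 replicate 3 to 4 pigment genes, 24 of 24 CLEAR genes and 7 to 8 of the 10 members were detected. At an adjusted p under 0.01, 1 member was higher in the authors' deposited table. The share of promoter windows was 3.77% for TCATGTG, 7.15% for CACGTG and 0.274% for AGTCATGTG. No direction reversed. The low counts of Tyr, Kit and Sox10 limit comparisons between libraries.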
